A study of Felis catus with 25 samples.

Results

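FGF1 and FGF7, a pair of fibroblast growth factor genes, were followed through 25 RNA-seq libraries of cultured cat (Felis catus) corneal fibroblasts. They are 2 of the 13949 genes in the deposited count tables, were found there by their symbols, and both passed the filter on low counts that left 10699 genes. Both were chosen by their levels and fold changes between the groups of these same libraries, so those values are given as a description and carry no test. The libraries form 5 groups of 5. FB fibroblasts were quiescent and untreated and were harvested on day 0. TGFb cells had 1 ng/ml of TGFb1, the cytokine that turns corneal fibroblasts into contractile myofibroblasts, for 2 days. The other groups had the same TGFb1 for 2 days, after which it was removed and a drug was given for 3 days, until day 5. Trog cells then had 7.5 uM troglitazone, T-G cells 7.5 uM troglitazone with 10 uM GW9662, and UK cells 30 uM UK-5099. Troglitazone is an agonist of the nuclear receptor PPARgamma, GW9662 is an antagonist of that receptor, and UK-5099 inhibits the mitochondrial pyruvate carrier. All groups but FB had therefore been exposed to TGFb1. No group stood at day 5 without a drug, so in a comparison of a day-5 group with TGFb or FB the drug, the later day and the removal of TGFb1 cannot be told apart. Cells grew on collagen-coated dishes. The replicates are called independent and biological, but whether they came from different cats is not said, and p-values measure the spread between these samples.

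FGF1, or acidic FGF, binds all the FGF receptor tyrosine kinases. It has no signal peptide, leaves the cell by an unconventional route, and can also enter cells and the nucleus. FGF7, or keratinocyte growth factor, is a secreted factor made by mesenchymal cells that acts on the epithelial splice form of FGFR2. In the cornea it is known as a stromal signal to the overlying epithelium, which responds with growth and wound closure, as it does to hepatocyte growth factor. Both ligands need heparan sulfate to assemble with their receptors, and the receptors signal through RAS, ERK and PI3-kinase.

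The libraries held from 14.8 M to 25.2 M counts (M, 1e6). Levels are in CPM, counts per M of library total, scaled by TMM, a method that sets the typical gene to be equal across libraries. CPM is not corrected for gene length, so levels are compared between groups and not between genes. UK replicate 5 stood apart: its correlation with the other UK libraries was 0.852 to 0.868, against at least 0.988 for all other pairs within a group. Calls of named genes that turn on it, and named levels that it moved over 1.5-fold, are given with and without it. Other UK levels hold it unless said otherwise. Of the stromal and fibroblast markers 9 of 10 passed the filter, and their summed level was 70042 to 85415 CPM in FB, 100978 to 121102 in TGFb and 91522 to 134747 in UK, but 3276 to 5154 in Trog and 1427 to 3245 in T-G. Most of that sum in TGFb was COL1A1 and COL1A2, collagen chains at 61380 and 37158 CPM, and the markers did not move as one. In Trog against TGFb 1 of the 9 rose and 4 fell, where 32.9% of all tested genes rose and 29.7% fell. The counts were 3 and 5 of 10 without UK replicate 5 and 4 and 4 under library totals alone, the scaling described below. In T-G against TGFb 2 rose and 6 fell (4 and 6 of 10, and 3 and 5), where 38.1% of all tested genes rose and 31.3% fell. PDGFRB, a receptor of stromal cells, rose in both groups, from 107 CPM in TGFb to 387 in Trog and 176 in T-G. DCN, the proteoglycan decorin, was at 583 CPM in TGFb and 579 in Trog but fell to 218 in T-G. LUM of the same list fell in both groups, from 859 CPM in TGFb to 243 in Trog and 64.8 in T-G. These markers were not picked by the naming rule given below. The 7 myofibroblast markers all rose in TGFb against FB and all fell in Trog, T-G and UK against TGFb (6 of 7 in UK under library totals alone). Of all tested genes 18.0% rose in TGFb against FB, and 29.7%, 31.3% and 22.5% fell in Trog, T-G and UK against TGFb. In bulk RNA, fewer cells of a type and less RNA per cell cannot be told apart. Of 10 listed epithelial markers 5 were in the files, with 3 or 4 of these at 0 in each group and a summed level of at most 10.5 CPM in any library. The epithelial markers KRT5, KRT14, KRT15, KRT19 and CDH1 and the stromal markers VIM and KERA were not analysed here. When libraries were scaled by their totals alone, the median gene's log2 fold change shifted by -0.37 in TGFb against FB, 0.68 in Trog, 0.85 in T-G and 0.23 in UK against TGFb, 0.17 in T-G against Trog and -0.46 in UK against Trog. The share of calls that were rises then went from 47.2% to 13.9%, 52.5% to 83.2%, 54.9% to 84.9%, 55.4% to 74.2%, 52.8% to 69.9% and 53.8% to 25.1%. Values below use TMM and are relative to the typical gene, and counts under library totals are given where this split moved.

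FGF1 was highest after troglitazone and had its lowest mean after UK-5099, where its libraries overlapped those of T-G and FB. Its level in FB was 1.31, 1.91, 1.83, 1.58 and 1.48 CPM in replicates 1 to 5 (1.62 ± 0.247, SD, n = 5), from 22 to 38 counts a library. In TGFb it was 3.28, 2.62, 2.76, 3.21 and 2.92 CPM (2.96 ± 0.282). The TGFb libraries were all above the FB libraries, as was so for 25.8% of all tested genes, and the mean was 1.82-fold higher. In Trog the level was 14.6, 20.7, 15.1, 14.8 and 14.6 CPM (15.9 ± 2.68), from 316 to 539 counts a library. All 5 Trog libraries were above every TGFb library (36.5% of all tested genes), with replicate 2 the highest and the other 4 within 1 CPM of each other. The mean was 5.39-fold that of TGFb, a log2 fold change of 2.43 ± 0.166 (SE).

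With GW9662 added to troglitazone, FGF1 stood at 1.57, 1.11, 0.877, 0.937 and 1.78 CPM (1.25 ± 0.399). That is 12.7-fold below Trog, and the log2 fold change of -3.67 ± 0.176 was the 19th lowest of 10699 genes in the comparison of T-G with Trog. No T-G library overlapped a Trog library, as was so in that direction for 26.9% of all tested genes. UK-5099 left FGF1 at 1.15, 0.833, 0.926, 1.40 and 1.28 CPM (1.12 ± 0.237), with 14 to 31 counts a library. UK was 14.3-fold below Trog and, like T-G, lay wholly below TGFb by TMM. Such separation downwards was seen for 35.2% of all tested genes in T-G against TGFb, 18.7% in UK against TGFb and 23.1% in UK against Trog. That of T-G from TGFb depended on the scaling. T-G replicate 5 had 42 counts in a library of 17.6 M, and TGFb replicate 2 had 43 in 22.2 M. By library totals alone T-G and TGFb therefore overlapped. The log2 fold changes from TGFb were -1.24 ± 0.182 in T-G and -1.41 ± 0.193 in UK.

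The order of FGF1 levels was thus Trog, TGFb, FB, T-G, UK. Trog and TGFb did not overlap, nor did TGFb and FB, whereas FB overlapped T-G and T-G overlapped UK. The log2 fold change of UK from T-G was -0.17 ± 0.200. Against FB the log2 fold changes were 3.29 ± 0.174 in Trog, -0.38 ± 0.188 in T-G and -0.55 ± 0.200 in UK. The difference between T-G and FB turned to 0.087 when libraries were scaled by their totals alone. All Trog libraries were above all FB libraries for FGF1 and also for FGF7, as for 35.6% of all tested genes.

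FGF7 followed another order and was highest after UK-5099. In FB it was counted in 2 of 5 libraries, at 0.179 and 0.151 CPM in replicates 1 and 2, with no count in the other 3. A count of 0 allows up to 3 counts, which is 0.128 to 0.165 CPM in those libraries. The 6 counts of the group gave 0.0660 ± 0.0910 CPM, with a 95% Poisson interval of 0.0226 to 0.134 CPM that covers counting error only. TGFb libraries stood at 0.546, 0.426, 0.564, 0.224 and 0.684 CPM (0.489 ± 0.174, 40 counts), all above the FB libraries by TMM, as for 25.8% of all tested genes. TGFb replicate 4 had 3 counts in 17.6 M and FB replicate 1 had 3 in 17.5 M, so the order of those libraries rests on the scaling. The log2 fold change of 2.89 ± 0.687 was 3.54 without FB replicate 1.

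Troglitazone libraries had FGF7 at 1.33, 1.31, 2.07, 1.87 and 0.921 CPM (1.50 ± 0.463, 186 counts). Each was above every TGFb library, as for 36.5% of all tested genes, and the log2 fold change was 1.59 ± 0.390. In T-G the level was 0.0766, 0.0740, 0.0797, 0.174 and 0.254 CPM (0.132 ± 0.0802, 17 counts). T-G lay 11.4-fold below Trog without overlap, as did 26.9% of all tested genes. The log2 fold change of -3.47 ± 0.446 ranked 26th from the bottom of 10699 genes. The T-G range overlapped that of TGFb, since T-G replicate 5 was above TGFb replicate 4, and it overlapped that of FB.

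UK libraries had FGF7 at 19.2, 9.36, 16.7, 13.5 and 26.9 CPM (17.1 ± 6.59, 1459 counts). All 5 were above every library of the other groups, and such a separation from FB was seen for 17.2% of all tested genes and from T-G for 22.5%. UK was 35.0-fold above TGFb, with a log2 fold change of 5.08 ± 0.356 that ranked 26th from the top, and 11.4-fold above Trog (3.49 ± 0.298). Separation upwards was seen for 16.0% of all tested genes in UK against TGFb and 20.9% in UK against Trog. The highest value was that of UK replicate 5. Without it the UK mean was 14.7 ± 4.25 CPM (n = 4), and the log2 fold changes were 4.86 from TGFb and 3.27 from Trog. Against FB, where the level rests on 6 counts, the log2 fold change was 7.97 ± 0.463, the fourth highest of the 10699 genes, and 8.62 without FB replicate 1.

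**Figure D1:**
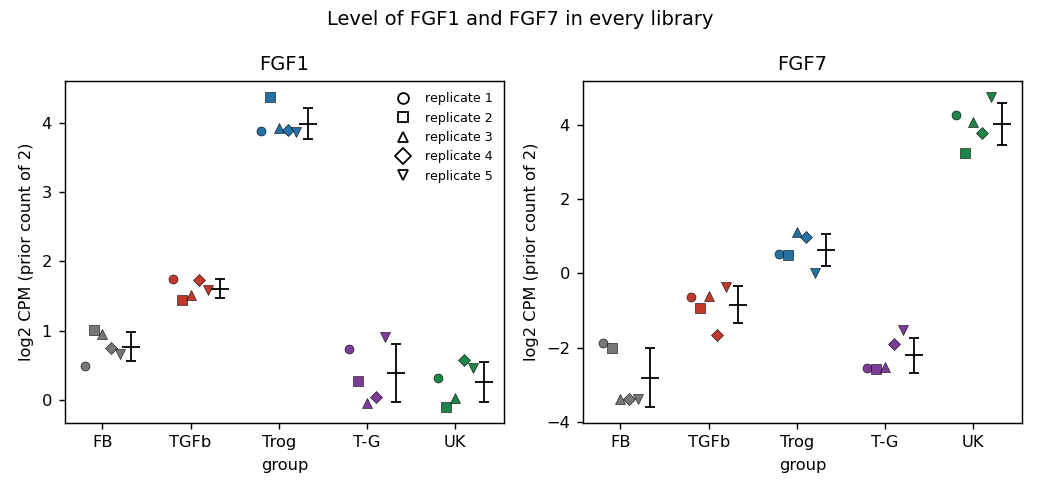
Level of FGF1 (left) and FGF7 (right) in each of 25 libraries, as log2 CPM with a prior count of 2, by group; marker shape gives the replicate number, and the bars give the mean and SD of 5 libraries. FGF1 is highest in Trog and FGF7 in UK, and both are lower in T-G than in Trog.

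The genes thus shared a direction in 4 of the 6 tested comparisons and were opposite in 2. Both were higher in TGFb than in FB, higher in Trog than in TGFb, and lower in T-G than in either. In UK against TGFb the log2 fold change was -1.41 for FGF1 and 5.08 for FGF7, and in UK against Trog it was -3.84 and 3.49. The comparisons with TGFb share its 5 libraries, and those with Trog share the Trog libraries.

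Neighbours of each gene, taken from RefSeq's gene order (assembly F.catus_Fca126_mat1.0, used for no coordinates), did not all follow it. FGF1 lies between SPRY4 and ARHGAP26. ARHGAP26 stood at 1.15 ± 0.137 CPM in FB, 0.964 ± 0.181 in TGFb, 7.83 ± 0.677 in Trog, 6.38 ± 0.769 in T-G and 0.650 ± 0.396 in UK (0.813 ± 0.182 without replicate 5, which had no count). ARHGAP26 rose in Trog (log2 fold change 3.01 from TGFb), while T-G differed from Trog by -0.29, with an edgeR Benjamini-Hochberg adjusted p of 0.243, or 0.0102 without UK replicate 5. The adjusted p was 0.0188 in an edgeR fit of those 2 groups alone and 0.0153 with DESeq2. FGF7 lies within the span of FAM227B, which was at or under 0.0764 CPM in every group and did not pass the filter. Whether reads were assigned by strand is not given in the sources used here. Of the flanking genes, GALK2, a sugar kinase, stood at 17.1 ± 1.19 CPM in TGFb, 56.5 ± 4.10 in Trog, 35.2 ± 2.58 in T-G and 39.2 ± 1.38 in UK. DTWD1, on the other side, was at 26.4 ± 2.06 in TGFb and 84.1 ± 67.2 in UK, where replicate 5 had 204 CPM and the other 4 stood at 54.1 ± 5.52.

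The other FGF ligands moved in both directions in most comparisons. Of 20 listed, 18 were in the files and 9 passed the filter; FGF2 and FGF23 were not analysed here. Genes count as risen or fallen below an adjusted p of 0.05 (edgeR quasi-likelihood F test, p adjusted by Benjamini and Hochberg across 10699 genes). In TGFb against FB 4 of 9 ligands rose and 0 fell, where 18.0% of all tested genes rose and 20.2% fell. Trog against TGFb had 3 up and 4 down (all genes 32.9% and 29.7%), T-G against TGFb also 3 and 4 (38.1% and 31.3%), and UK against TGFb 4 and 3 (28.0% and 22.5%). In T-G against Trog and in UK against Trog 4 rose and 1 fell, against 22.8% and 20.4% of all genes in the former and 32.9% and 28.2% in the latter. Under library totals alone the counts were 4 up and 1 down in TGFb against FB, 4 and 3 in Trog and 5 and 2 in T-G against TGFb, and 2 and 2 in UK against Trog. Without UK replicate 5, T-G against Trog had 4 up and 3 down. The median log2 fold changes of the 9 ligands in these 6 comparisons were 0.72, -0.54, -0.52, 0.06, 0.17 and 0.26, against -0.02, 0.04, 0.09, 0.09, 0.01 and 0.04 over all genes. They were the same with FGF19 at its bound where it had no counts.

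FGF10, the closest relative of FGF7 and a ligand of the same splice form of FGFR2, was also highest in 4 of the UK libraries. There it stood at 161, 157, 158 and 161 CPM, but UK replicate 5 had 20.1 CPM, below all TGFb libraries (32.5 ± 2.30). FGF10 rose in UK against TGFb by 2.02 ± 0.321 on the log2 scale (adjusted p = 1.3e-05) and by 2.29 ± 0.114 without that library. In Trog it was at 50.8 ± 5.66 CPM and in T-G at 21.4 ± 5.67, a fall of 1.25 ± 0.314 on the log2 scale (adjusted p = 0.00235). Trog against TGFb, at 0.64 ± 0.311, did not pass the test (adjusted p = 0.076). It did without UK replicate 5 (4.61e-06), in a fit of those 2 groups alone (6.17e-08) and under library totals alone (0.000934).

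FGF9 and FGF19 were highest in T-G, the group where FGF1 and FGF7 were low. FGF9, a ligand of the FGFR3 class of receptors, was at 0.104 ± 0.106 CPM in TGFb (0.0678 ± 0.0790 without replicate 5), 0.575 ± 0.192 in Trog, 0.519 ± 0.193 in UK and 4.19 ± 0.810 in T-G, and rose in T-G against Trog by 2.85 ± 0.291 on the log2 scale. FGF19, an endocrine FGF of bile acid control, had no count in TGFb or UK. It had 23 counts in Trog, which is at least 5.06-fold higher than TGFb, and 480 counts in T-G (3.69 ± 1.58 CPM), at least 98.6-fold higher, with the floor set at 3 counts over the group. FGF22, a relative of FGF7 and FGF10, went from 0.749 ± 0.134 CPM in TGFb to 0.0839 ± 0.0613 in Trog and 0.102 ± 0.0654 in UK. FGF18, a ligand known in bone and cartilage, reached 1.22 ± 1.58 CPM in UK, where replicate 5 had 4.03 and the other 4 stood at 0.517 ± 0.194.

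The intracellular FGFs, which bind ion channels rather than receptors, parted ways. FGF12 rose from 0.428 ± 0.176 CPM in FB to 2.61 ± 0.251 in TGFb, and FGF14 from 0.162 ± 0.147 (0.106 ± 0.0899 without FB replicate 4) to 1.94 ± 0.442. Both then fell in each day-5 group, FGF12 to between 0.598 and 0.894 CPM and FGF14 to between 0.0577 and 0.142. FGF11 rose from 7.62 ± 0.861 in FB to 27.6 ± 1.82 in TGFb and was at 28.7 ± 5.24 in UK. FGF13 was at 6.55 ± 0.868 in TGFb, 16.4 ± 1.34 in Trog, 12.2 ± 1.11 in T-G and 27.0 ± 9.37 in UK, where replicate 5 had 10.4.

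Among the receptors, FGFR2 was highest in both troglitazone groups. FGFR2, which in its epithelial splice form is the receptor of FGF7 and FGF10, was at 5.73 to 8.24 CPM in FB, 9.25 to 11.3 in TGFb, 69.9 to 90.9 in Trog and 61.9 to 106 in T-G. Trog and T-G lay wholly above TGFb, as did 36.5% of all tested genes in Trog and 40.9% in T-G. FGFR2 rose from TGFb by 2.92 ± 0.189 on the log2 scale in Trog and by 3.09 ± 0.191 in T-G, while the difference of T-G from Trog, 0.17 ± 0.173, did not pass the test (adjusted p = 0.471). In UK it was at 15.8 ± 4.93 CPM (17.8 ± 2.03 without replicate 5), 2.30 ± 0.183 below Trog on the log2 scale. Gene counts do not separate the splice forms of a receptor.

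FGFR1, the main receptor of mesenchymal cells, rose from 135 ± 3.19 CPM in FB to 200 ± 6.77 in TGFb. It was at 224 ± 12.7 in Trog, 180 ± 13.3 in T-G and 155 ± 41.2 in UK (173 ± 8.79 without replicate 5). The rise in TGFb did not pass the test under library totals alone (adjusted p = 0.293). FGFR1 differed from TGFb by 0.16 in Trog and by -0.15 in T-G on the log2 scale. Both passed the test without UK replicate 5 and in fits of 2 groups alone, and not in the model of all libraries. Under library totals alone Trog stood at 0.845 and T-G turned to 0.70, and both passed. FGFR1 fell in UK against TGFb. That call was lost with upper quartile scaling (adjusted p = 0.0661), library totals alone (0.54) and a fit of those 2 groups alone (0.195). FGFR3 fell from 10.8 ± 1.34 CPM in FB to 6.16 ± 1.14 in TGFb and rose to 13.4 ± 1.09 in Trog, 26.9 ± 3.12 in T-G and 10.7 ± 3.89 in UK. Without UK replicate 5, which had 4.03 CPM, its UK level was 12.4 ± 1.19. FGFR3 in UK against TGFb did not pass the test in a fit of those 2 groups alone (adjusted p = 0.0572). FGFR4 ran the other way in TGFb against FB and in each day-5 group against TGFb, from 4.01 ± 0.537 in FB to 11.7 ± 1.74 in TGFb, 1.27 ± 0.176 in Trog, 2.17 ± 0.180 in T-G and 5.18 ± 1.31 in UK, but in T-G over Trog it rose, as FGFR3 did. FGFRL1, a receptor that lacks the kinase domain, was highest in UK at 34.3 ± 7.35 CPM, against 13 ± 1.28 in TGFb, a rise of 1.40 ± 0.126 on the log2 scale. In UK against TGFb 3 of the 5 receptors rose and 2 fell (all genes 28.0% and 22.5%). In Trog against TGFb 3 rose and 1 fell (all genes 32.9% and 29.7%), and in T-G against TGFb 2 and 1 (38.1% and 31.3%). TGFb against FB had 3 up and 2 down (18.0% and 20.2%). Library totals alone gave 1 and 2 there, 4 and 1 in T-G and 3 and 1 in UK against TGFb. In T-G against Trog 2 rose and 0 fell (all genes 22.8% and 20.4%), and in UK against Trog 2 rose and 2 fell (32.9% and 28.2%). In the order given for the ligands, the median log2 fold changes of the 5 receptors were 0.52, 0.31, 0.12, 0.63, 0.17 and -0.30. KL, KLB and FGFBP1 did not pass the filter, and FGFBP2 and FGFBP3 were not analysed here.

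**Figure D2:**
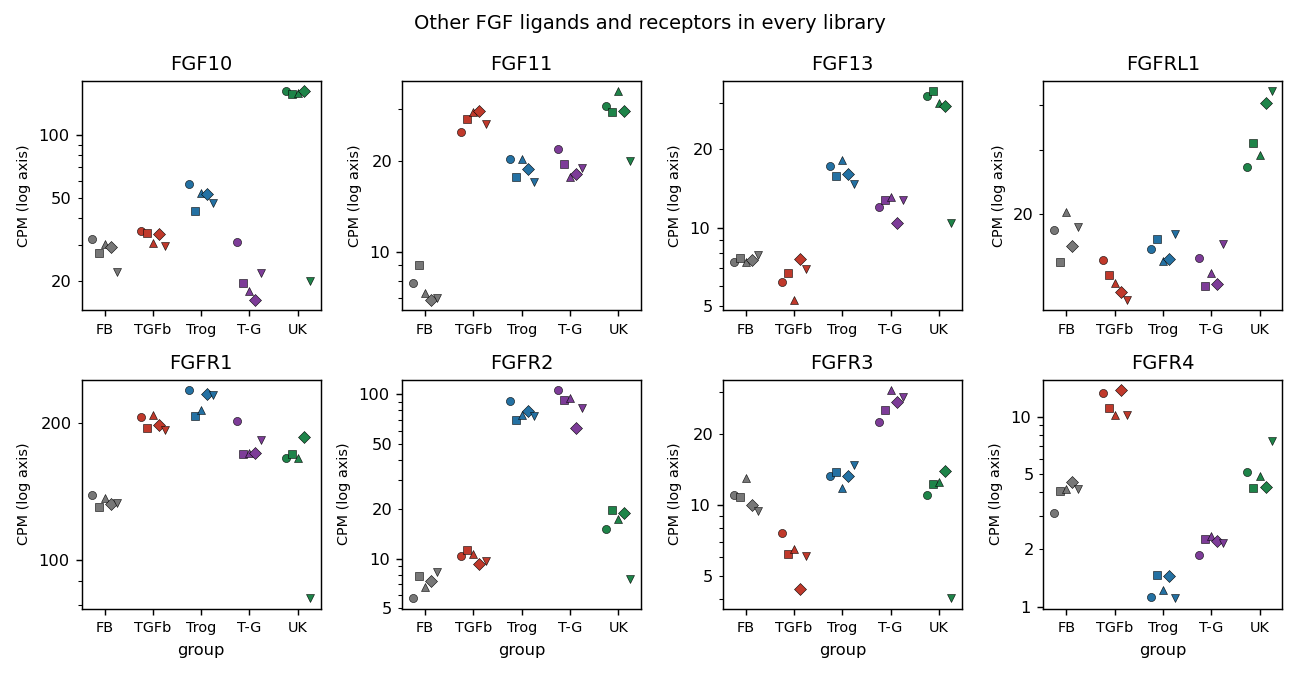
CPM of 3 further FGF ligands and the 5 receptors in each library, on log axes, by group; marker shape gives the replicate number as in the plot of FGF1 and FGF7. FGF10 lies between 157 and 161 CPM in 4 UK libraries and at 20.1 in UK replicate 5, and FGFR2 is high in Trog and T-G.

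Heparan sulfate genes, on whose product both ligands depend, were more often higher than lower in TGFb against FB and more often lower than higher in Trog and T-G against TGFb. Of 33 listed, 22 passed the filter. In TGFb against FB 13 rose and 2 fell (all genes 18.0% and 20.2%), with a median log2 fold change of 0.76. In Trog against TGFb 2 rose and 15 fell (median -1.39, all genes 32.9% and 29.7%). In T-G against TGFb 3 rose and 14 fell (median -1.40, all genes 38.1% and 31.3%). UK against TGFb had 4 up and 8 down (median -0.15, all genes 28.0% and 22.5%), or 7 and 8 without UK replicate 5. In UK against Trog 14 rose and 3 fell (median 1.25, all genes 32.9% and 28.2%). In T-G against Trog 4 rose and 9 fell (median -0.15, all genes 22.8% and 20.4%), or 8 and 10 without UK replicate 5. Under library totals alone the counts were 11 and 4 in TGFb against FB, 4 and 14 in Trog and 8 and 11 in T-G against TGFb, and 5 and 7 in T-G against Trog.

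SDC1, the membrane proteoglycan syndecan-1, rose from 201 ± 13 CPM in FB to 336 ± 25.5 in TGFb. It fell to 68.9 ± 3.71 in Trog, 63.0 ± 5.09 in T-G and 212 ± 11.7 in UK. GPC4, a glypican held by a lipid anchor, was at 814 ± 62.3 in TGFb, 77.4 ± 6.92 in Trog, 45.8 ± 1.62 in T-G and 504 ± 118 in UK. Of the sulfatases that trim heparan sulfate outside the cell, SULF1 fell from 827 ± 68.4 CPM in TGFb to 57.2 ± 8.52 in Trog and 177 ± 72.0 in UK, and SULF2 fell from 143 ± 10.2 to 39.3 ± 3.01 in Trog but was at 143 ± 25.4 in UK. Against this direction, HPSE, the heparanase that cleaves the chains, rose from 0.0994 ± 0.0528 CPM in TGFb to 1.30 ± 0.270 in Trog and 1.48 ± 0.309 in T-G. XYLT1, which starts the chains, rose from 2.15 ± 0.729 to 7.45 ± 0.904 in Trog and 13.9 ± 3.27 in T-G. EXT2, a chain-extending enzyme, was highest in UK at 877 ± 248 CPM, against 556 ± 20.2 in TGFb. The summed level of the stromal markers, most of it from the collagen chains COL1A1 and COL1A2, was also lower in Trog and T-G than in TGFb, while PDGFRB of that list rose in both. Of the 9 tested stromal markers 1 rose and 4 fell in Trog (all genes 32.9% and 29.7%) and 2 rose and 6 fell in T-G (38.1% and 31.3%). Their part in the heparan sulfate changes was not tested.

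**Figure D3:**
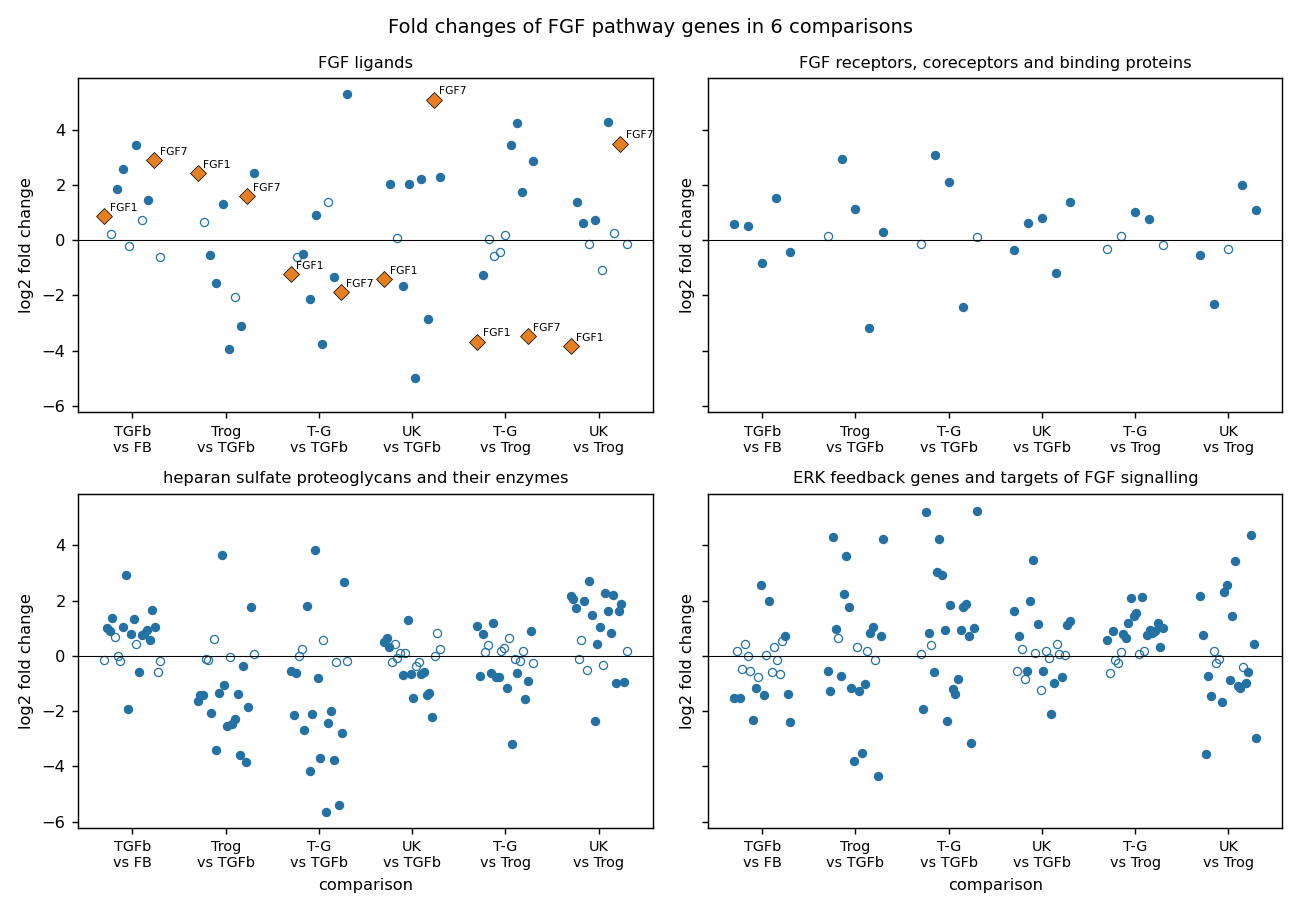
Log2 fold change of the tested genes of 4 lists in 6 comparisons; filled points passed the edgeR test at an adjusted p under 0.05, open points did not, and diamonds are FGF1 and FGF7, which were not tested. FGF19 is left out where a group had no count of it. Of 22 heparan sulfate genes 15 fell in Trog against TGFb (29.7% of all tested genes) and 14 rose in UK against Trog (32.9%).

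Partners of FGF1 in its export and nuclear entry did not move with it in most comparisons. Of 12 listed, 8 were in the files and all of these passed the filter; S100A13 and SYT1, which form the export complex, were not analysed here. In Trog against TGFb, where FGF1 was 5.39-fold higher, 1 partner rose and 6 fell (median log2 fold change -0.58, all genes 32.9% and 29.7%). In T-G against TGFb 1 rose and 5 fell (median -0.50, all genes 38.1% and 31.3%). UK against TGFb had 1 up and 4 down (median -0.31, all genes 28.0% and 22.5%), or 1 and 6 without UK replicate 5. TGFb against FB had 1 up and 3 down (median -0.30, all genes 18.0% and 20.2%), or 2 and 5 without that library. Scaled by library totals alone, the counts were 0 up and 6 down in TGFb against FB, 2 and 1 in Trog, 4 and 1 in T-G and 2 and 3 in UK against TGFb. In T-G against Trog 3 rose and 0 fell (median 0.18, all genes 22.8% and 20.4%), or 4 and 1 without UK replicate 5. In UK against Trog 3 rose and 1 fell (median 0.42, all genes 32.9% and 28.2%). The counts there were 4 and 2 without that library and 1 and 3 with library totals alone.

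The partner that rose in all 3 day-5 groups over TGFb was SPHK1, the sphingosine kinase that takes part in FGF1 export. SPHK1 was at 1.61 ± 0.337 CPM in TGFb, 8.66 ± 0.841 in Trog, 23.3 ± 3.27 in T-G and 11.8 ± 8.34 in UK (8.16 ± 1.68 without replicate 5). SPHK1 rose in T-G over Trog by 1.43 ± 0.257 on the log2 scale, where FGF1 was lower. In TGFb over FB the 1 gene that rose was KPNA1, an importin, by 0.31 ± 0.122 (adjusted p = 0.048), a call that depended on the setting. It was lost with limma voom (0.0538), with no filter (0.0669), with upper quartile scaling (0.126), with the replicate block (0.0545) and in 21 of 25 fits without 1 library (0.052 to 0.111), and the sign of KPNA1 turned under library totals alone (-0.065). ANXA2, an annexin that helps FGF1 through the membrane, fell from 3446 ± 142 CPM in TGFb to 634 ± 27.3 in Trog. LRRC59, which carries FGF1 to the nucleus, fell from 82.3 ± 4.37 to 45.4 ± 2.18, and KPNB1, an importin, from 606 ± 7.60 to 348 ± 13.9, both calls lost under library totals alone (adjusted p = 0.498 and 0.167).

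Signal transducers below the receptors included rises and falls in each comparison scaled by TMM. All 22 in the files passed the filter. In Trog against TGFb 9 rose and 5 fell (median log2 fold change 0.13, all genes 32.9% and 29.7%). In T-G against TGFb 12 rose and 4 fell (median 0.20, all genes 38.1% and 31.3%). UK against Trog had 1 up and 12 down (median -0.39, all genes 32.9% and 28.2%), or 3 and 15 without UK replicate 5. PIK3CA, the catalytic subunit of PI3-kinase, rose from 69.0 ± 3.23 CPM in TGFb to 148 ± 10.3 in Trog and 208 ± 15.5 in T-G. PLCG1, a phospholipase that docks on FGF receptors, rose from 105 ± 2.87 to 228 ± 4.18 and 254 ± 6.80. NRAS, a RAS protein, fell from 65.0 ± 3.88 CPM to 34.0 ± 0.992 in Trog. The other counts leaned on UK replicate 5. In TGFb against FB they were 1 up and 3 down with it (all genes 18.0% and 20.2%) and 8 and 5 without. In UK against TGFb they were 3 and 8 with it (all genes 28.0% and 22.5%) and 11 and 10 without. In T-G against Trog they were 4 and 1 with it (all genes 22.8% and 20.4%) and 11 and 5 without. With library totals alone they were 0 and 6 in TGFb against FB, 16 and 1 in Trog, 18 and 0 in T-G and 6 and 3 in UK against TGFb. By TMM with all libraries the median log2 fold changes were 0.07 in TGFb against FB, -0.06 in UK against TGFb and 0.13 in T-G against Trog.

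Genes that answer to and restrain ERK, the usual readout of FGF signalling, were split after troglitazone and mostly higher when GW9662 was added. Of 25 listed, 22 passed the filter. In Trog against TGFb 9 rose and 9 fell (median log2 fold change 0.25, all genes 32.9% and 29.7%). In T-G against TGFb 13 rose and 7 fell (median 0.87, all genes 38.1% and 31.3%). In T-G against Trog, where FGF1 and FGF7 were lower, 16 rose and 0 fell (median 0.81, all genes 22.8% and 20.4%), or 17 and 2 without UK replicate 5. TGFb against FB had 3 up and 7 down (median -0.51, all genes 18.0% and 20.2%), or 4 and 13 without that library. UK against TGFb had 7 up and 5 down (median 0.07, all genes 28.0% and 22.5%), or 12 and 7 without it. UK against Trog had 8 up and 10 down (median -0.33, all genes 32.9% and 28.2%). Scaled by library totals alone, the counts were 2 up and 13 down in TGFb against FB, 12 and 4 in Trog, 16 and 4 in T-G and 8 and 3 in UK against TGFb, and 6 and 13 in UK against Trog.

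DUSP6, the phosphatase that switches off ERK, was at 1.62 to 3.34 CPM in TGFb, 29.2 to 58.8 in Trog, 70.4 to 112 in T-G and 3.11 to 5.64 in UK. The Trog and T-G libraries lay above those of TGFb, as for 36.5% and 40.9% of all tested genes. T-G lay above Trog, as did 27.3% of all tested genes. DUSP6 rose from TGFb to Trog by 4.30 ± 0.233 on the log2 scale and from Trog to T-G by 0.89 ± 0.194, and UK lay 3.56 ± 0.221 below Trog. SPRY4, an inhibitor of receptor tyrosine kinase signalling and the neighbour of FGF1, stood at 1.02 ± 0.171 CPM in FB, 0.188 ± 0.0422 in TGFb, 3.65 ± 0.905 in Trog, 7.31 ± 1.10 in T-G and 0.425 ± 0.261 in UK. Without UK replicate 5, which had no count, its UK level was 0.531 ± 0.124. The transcription factor ETV4 went from 4.28 ± 0.418 in FB to 0.853 ± 0.295 in TGFb, 10.4 ± 1.27 in Trog, 16.1 ± 2.76 in T-G and 9.59 ± 2.87 in UK. ETV5 went from 17.9 ± 1.06 in TGFb to 60.2 ± 4.71 in Trog, 137 ± 10.7 in T-G and 19.0 ± 8.65 in UK (22.5 ± 4.21 without replicate 5).

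SPRY1 and IL17RD ran opposite to DUSP6 in TGFb against FB, in Trog against TGFb and in UK against Trog, but all 3 rose in T-G over Trog. SPRY1, a relative of SPRY4, rose from 24.7 ± 1.46 CPM in FB to 40.3 ± 2.88 in TGFb, fell to 1.97 ± 0.363 in Trog and 4.55 ± 0.695 in T-G, and was at 40.5 ± 17.6 in UK. Without UK replicate 5 the UK level of SPRY1 was 47.5 ± 9.06, a rise of 0.24 on the log2 scale over TGFb (adjusted p = 0.0278) that did not pass the test with it. Its rise in TGFb did not pass the test under library totals alone (adjusted p = 0.277). IL17RD, a membrane inhibitor of FGF receptors, rose from 1.10 ± 0.234 CPM in FB to 4.32 ± 0.590 in TGFb, and was at 0.374 ± 0.0931 in Trog, 1.64 ± 0.451 in T-G and 3.97 ± 1.98 in UK (4.83 ± 0.564 without replicate 5). SPRY2 fell from 19.7 ± 2.35 in FB to 7.56 ± 0.567 in TGFb and rose to 12.3 ± 0.856 in Trog and 16.3 ± 3.63 in UK. CCND1, the cyclin of early cell cycle entry, fell from 51.7 ± 6.51 CPM in FB to 17.8 ± 1.42 in TGFb and was at 54.6 ± 18.3 in UK (46.7 ± 5.56 without replicate 5). MYC, a driver of growth, fell from 128 ± 13.9 CPM in TGFb to 29.7 ± 19.8 in UK (21.7 ± 9.99 without replicate 5).

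**Figure D4:**
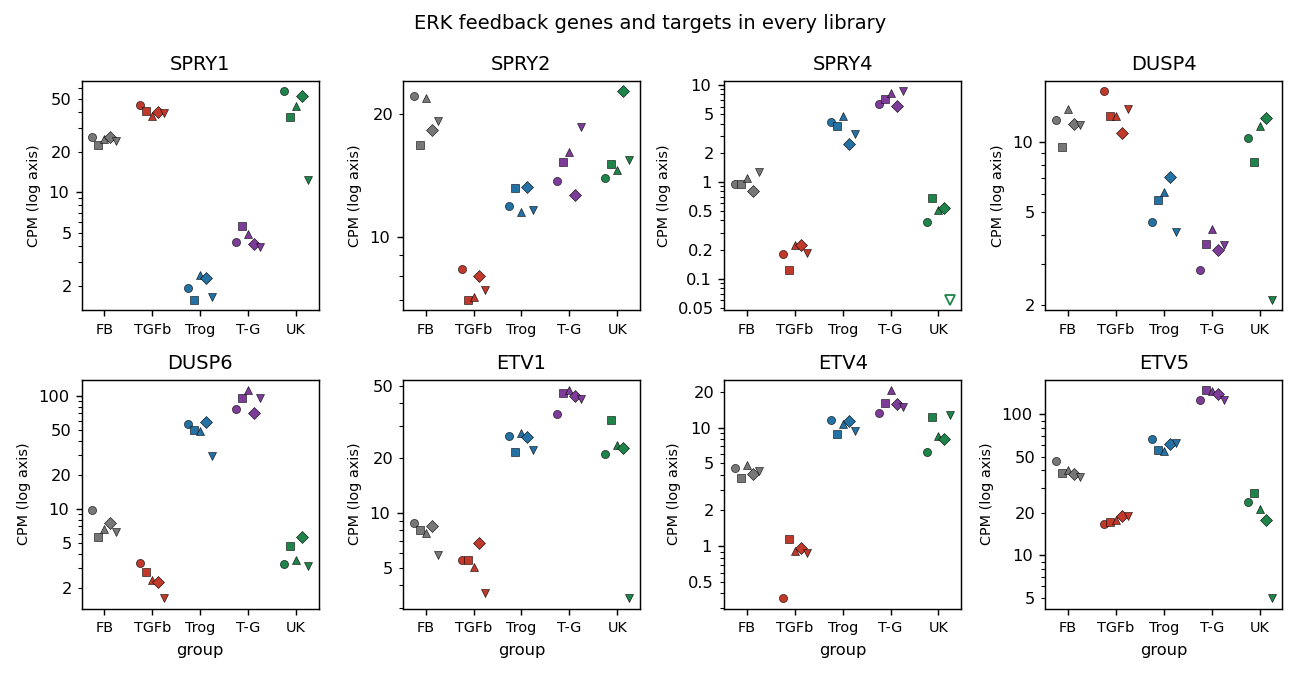
CPM of 8 ERK feedback genes and targets in each library, on log axes, by group; an open triangle stands for a library with no count, drawn below the lowest value. DUSP6, SPRY4, ETV4 and ETV5 are higher in T-G than in Trog, and SPRY1 is low in both.

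HGF, the other factor by which the corneal stroma is known to act on the epithelium, shared the order of neither FGF gene. HGF was at 11.5 ± 0.461 CPM in FB, 3.29 ± 0.434 in TGFb, 24.6 ± 3.71 in Trog, 16.6 ± 3.22 in T-G and 10.5 ± 2.16 in UK. It fell in TGFb, where both FGF genes were higher than in FB, and rose by 2.90 ± 0.163 on the log2 scale in Trog. Its receptor MET rose from 291 ± 17.4 to 549 ± 56.6 in TGFb and fell to 148 ± 3.98 in Trog and 74.2 ± 5.58 in T-G. Of the 15 tested growth factors and receptors of this list, 4 rose and 2 fell in TGFb against FB (all genes 18.0% and 20.2%). In Trog against TGFb 7 rose and 4 fell (all genes 32.9% and 29.7%), and in T-G against TGFb 9 and 2 (38.1% and 31.3%). UK against TGFb had 4 up and 4 down (28.0% and 22.5%), or 4 and 6 without UK replicate 5. In T-G against Trog 7 rose and 2 fell (22.8% and 20.4%), or 8 and 4 without UK replicate 5. In UK against Trog 4 rose and 8 fell (32.9% and 28.2%). Under library totals alone the counts were 2 and 2 in TGFb against FB, 9 and 1 in Trog and 13 and 1 in T-G against TGFb. The median log2 fold changes were 0.26, 0.43, 1.24, -0.15, 0.33 and -0.77.

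Of these factors IGF2, AREG, EREG and KITLG were highest in T-G. IGF2 went from 4.98 ± 0.764 CPM in TGFb to 6.52 ± 1.05 in Trog, 63.4 ± 17.6 in T-G and 29.0 ± 6.51 in UK. The EGF receptor ligand AREG was at 0.0835 ± 0.116 in TGFb (0.0339 ± 0.0395 without replicate 3), 2.35 ± 0.511 in Trog, 8.63 ± 3.19 in T-G and 0.0854 ± 0.100 in UK (0.0454 ± 0.0525 without replicate 2). EREG, of the same family, reached 8.43 ± 2.22 CPM in T-G and had no count in UK, at least 36.3-fold lower than the 1.19 ± 0.348 CPM of Trog. KITLG, the ligand of the KIT receptor, was at 0.198 ± 0.0430 in TGFb, 1.52 ± 0.311 in T-G and 0.505 ± 0.163 in UK. VEGFA, an angiogenic factor, and HBEGF, a ligand of the EGF receptor, fell in UK from 81.6 ± 5.49 to 18.2 ± 7.74 CPM and from 51.7 ± 7.42 to 7.18 ± 1.18 CPM.

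Genes with a pattern most like each member were ranked by Pearson's r of log2 CPM over the 25 libraries, among 8224 genes that reached 10 CPM in a group. For FGF1 they were PDIA4 (r = 0.956), RILPL1 (0.913), IDH1 (0.904), TMEM87B (0.884) and MCL1 (0.877). PDIA4, a protein disulfide isomerase of the endoplasmic reticulum, stood at 564 ± 24.9 CPM in FB, 1045 ± 75.8 in TGFb, 2202 ± 340 in Trog, 584 ± 74.2 in T-G and 627 ± 106 in UK. IDH1, the cytosolic isocitrate dehydrogenase, was at 153 ± 6.93 in TGFb, 260 ± 14.5 in Trog and 149 ± 15.1 in T-G. For FGF7 they were FGR (0.956), PRKAG2 (0.952), LGMN (0.951), HFE (0.946) and BST1 (0.946). BST1, an ectoenzyme of NAD metabolism, was at 3.56 ± 0.345 CPM in FB, 21.6 ± 1.13 in TGFb, 16.8 ± 2.75 in Trog, 3.87 ± 0.644 in T-G and 155 ± 50.3 in UK. LGMN, a lysosomal protease, was at 170 ± 13.3 in TGFb, 304 ± 16.8 in Trog and 613 ± 99.7 in UK. The points share libraries and groups, so r mostly follows the 5 group means. By Spearman's rank correlation 0 of the 5 genes named for FGF1 and 1 of the 5 for FGF7 stayed among the first 5, and without UK replicate 5 the numbers were 2 and 3.

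**Figure D5:**
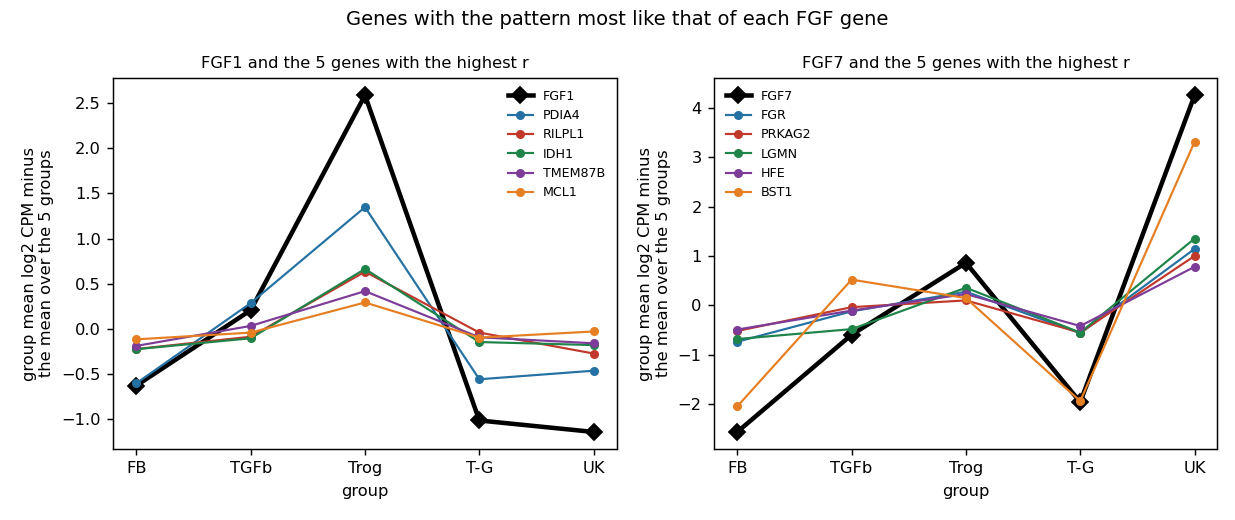
Group mean of log2 CPM minus the mean over the 5 groups for FGF1 (left) and FGF7 (right), in black, and for the 5 genes with the highest r to each. PDIA4 and BST1 come nearest in the size of the differences.

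FABP4, a lipid-binding protein and textbook target of PPARgamma, had no count in FB or TGFb and 38.2 ± 5.60 CPM in Trog. In T-G it was at 4.82 ± 1.09 CPM, a fall of 2.99 ± 0.435 on the log2 scale from Trog (edgeR Benjamini-Hochberg adjusted p = 3.77e-05), and in UK at 1.95 ± 2.41. UK replicate 5 had 6.22 CPM of FABP4, and the other 4 UK libraries stood at 0.880 ± 0.355. PPARG itself had no count in TGFb, Trog or UK, 3 counts in FB and 65 in T-G, and did not pass the filter. The adipocyte markers ADIPOQ and CIDEC did not pass it either. Of the 4 that did, FABP4 among them, 2 rose and 0 fell in Trog against TGFb (all genes 32.9% and 29.7%). In T-G 3 rose and 0 fell (38.1% and 31.3%), and in UK 2 and 1 (28.0% and 22.5%). Library totals alone gave 4 and 0 in T-G and 2 and 0 in UK. LIPE rose in all 3, from 6.64 CPM in TGFb to 10.8 in Trog, 9.27 in T-G and 13.7 in UK. ACTA2, the actin that marks myofibroblasts, was at 1942 ± 146 CPM in FB, 9003 ± 427 in TGFb, 270 ± 73.6 in Trog, 9.38 ± 11.5 in T-G and 3408 ± 1464 in UK. T-G replicate 1 had 29.5 CPM of ACTA2 and the other 4 stood at 4.36 ± 2.86, and UK without replicate 5 was at 2771 ± 385. FGF1 was higher than in FB both in TGFb, where ACTA2 was highest, and in Trog. FGF7 was highest in UK, where ACTA2 lay between its levels in FB and TGFb. The markers of immune cells summed to 10.6 to 13.3 CPM in FB, 19.8 to 28.1 in TGFb, 31.8 to 38.9 in Trog, 25.1 to 29.1 in T-G and 26.2 to 39.6 in UK, with 3 or 4 of 9 at 0 in each group. PTPRC, the marker of all leukocytes, AIF1 and TYROBP were at 0 in every group. CD68, a lysosomal protein, held most of the sum in TGFb and in Trog, at 22.6 and 25.8 CPM. CSF1R, a macrophage growth factor receptor named here after its values were seen, rose from 0.152 ± 0.0621 CPM in TGFb to 5.81 ± 0.555 in Trog, 4.44 ± 0.636 in T-G and 6.33 ± 1.21 in UK. CD14, a receptor of monocytes named likewise, rose from 0.703 ± 0.218 to 3.50 ± 1.02, 2.15 ± 0.732 and 3.50 ± 0.807. The markers of melanocytes and Schwann cells summed to at most 0.508 CPM. Vascular markers summed to 38.8 CPM in UK replicate 5, to between 152 and 185 in the other UK libraries, and to between 66.7 and 109 in the other groups. ERG held most of the UK sum, at 157 ± 12.5 CPM in the other 4 libraries and 34.3 in replicate 5. In those 4 the means of PECAM1, CDH5, TEK, EMCN and ESAM were at most 0.124 CPM. KDR and VWF of this list, named after their values were seen, rose over TGFb in all 3 day-5 groups. KDR went from 7.23 CPM in TGFb to 20.55 in Trog, 47.01 in T-G and 10.95 in UK. VWF went from 0.0365 CPM (0.0152 without TGFb replicate 2) to 0.149, 0.759 and 0.8001. Of the 5 tested vascular markers 3 rose and 1 fell in Trog, and 3 rose and 2 fell in T-G and in UK. Library totals alone gave 3 and 0 in Trog and 3 and 1 in T-G. The part of other cells in the levels of FGF1 and FGF7 was not tested.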

How the data were processed

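The 25 deposited files hold read counts per gene symbol, 1 file per library. Per the labels' protocols they come from stranded poly(A) libraries made from 200 ng of RNA. Per the submitters' processing notes, the tools behind the deposited counts were Salmon 1.5.2, featureCounts, STAR 2.7.9a, fastp 0.23.1 and Subread 2.0.1, with no role stated. The genome build, annotation and strand setting are not given in the sources used here, so overlapping genes may share reads.

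Counts were fitted with edgeR 4.0.16 (R 4.3.3) as 1 model of 5 groups, with TMM scaling, the filterByExpr filter (10 counts and 15 in total at its defaults), the quasi-likelihood F test and Benjamini-Hochberg adjusted p under 0.05. The SE of a log2 fold change is its size divided by the root of the F statistic. Mean and SD are of CPM over 5 libraries. No 2 libraries were identical. The members and gene lists were chosen with earlier results of these data known. Named were all tested ligands and receptors, the neighbours, the 5 genes of highest r and, in each other list and comparison, up to 3 genes that rose and 3 that fell, lowest p first. A gene so named may be given in other comparisons too; FABP4, PPARG and ACTA2 were chosen after their values were seen. The scripts were tested on simulated data. Alternatives were DESeq2 1.42.0, limma 3.58.1 voom, other scalings and filters, fits restricted to a single pair of groups, leave-one-out fits, and the replicate number as a block.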

Additional observations from a re-analysis of the deposited data

Results flagged for a closer look

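Within each group of 5 libraries, the highest and lowest values of FGF1, FGF7 and the other tested ligands and receptors were checked against Dixon's limit for a single library far from the rest. Of 78 groups over 16 genes, 5 held such a library, and chance flags about 1 in 20. FGF1 in Trog replicate 2 was at 20.7 CPM, where the other 4 Trog libraries lay between 14.6 and 15.1. The other 4 cases were all UK replicate 5. FGF10 there was at 20.1 CPM against 157 to 161 in the rest of UK. FGF13 was at 10.4 CPM against 29.3 to 33.2, and FGFR1 at 82.6 against 168 to 186. FGF18 was higher there than in the rest, at 4.03 CPM against 0.294 to 0.767.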

How the results depend on the processing

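Fits of only the groups compared called 7087 genes in TGFb against FB, 3210 in UK against TGFb and 7312 in T-G against Trog. The model of all 25 libraries called 4089, 5408 and 4620. Fits of 2 groups hold fewer samples and take the spread from those groups alone. In the model of all libraries the groups share 1 estimate of the spread, so UK replicate 5 also enters comparisons that hold no UK library. Without UK replicate 5 the counts of that model were 7124 in TGFb against FB, 7657 in UK against TGFb and 7735 in T-G against Trog. Over all libraries left out in turn, the counts ran from 3657 to 7124 in TGFb against FB and from 4176 to 7735 in T-G against Trog. With library totals alone, FGF1 had log2 fold changes of 0.48 in TGFb against FB, 3.12 in Trog against TGFb, -0.39 in T-G against TGFb, -4.29 in UK against Trog and 3.60 in Trog against FB, and T-G against FB turned from -0.38 to 0.087. FGF7 had 2.27 in Trog and -1.05 in T-G against TGFb. The mean FGF1 level was then 2.20 CPM in TGFb, 19.1 in Trog and 1.68 in T-G. These shifts go with that of the median gene. The same scaling turned FGFR1 in T-G against TGFb to 0.70 and KPNA1 in TGFb against FB to -0.065. Of 522 recomputed member fold changes, 514 stayed within the limits set, 7 moved and 1 turned. Of the 5 genes most like FGF1, 0 stayed by Spearman's rank correlation and 2 without UK replicate 5; for FGF7 the numbers were 1 and 3; the cause was not tested. Replicate numbers did not pair the samples: deviations of same-numbered libraries correlated at -0.187 to 0.328, and over 0.1 in 2 of 5 pairs of UK with Trog and in 0 of 5 elsewhere. With the replicate block 3981, 6647, 7361, 5129, 4512 and 6326 genes were called in the 6 comparisons, and of the named genes KPNA1 lost its call (adjusted p = 0.0545, edgeR). FGF7 in FB rests on 6 counts, which limits every fold change from FB.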
